A study of Homo sapiens with 42 samples.

Results

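The untreated state of K562 cells was described across all 33914 chromatin loops of a deposited table, using its 0 h counts alone. K562 is an established human leukemia line, labelled wild type and grown in RPMI with serum; it was derived from a chronic myelogenous leukemia and carries the BCR-ABL1 fusion gene. The series follows these cells through treatment with 25 nM PMA, a phorbol ester that drives them toward a megakaryocyte-like state, and 0 h is the untreated state. Of 42 samples, 14 are from 0 h, and they fill 10 of 30 count columns. Columns were chosen by their 0 h name and summed into 4 biological replicates. For replicates 1 and 2 the sum runs over 3 technical replicates, and for replicates 3 and 4 over 2, which went through 2 sequencing runs. No treated sample enters any value. Because the labels do not say how the biological replicates were cultured, p-values measure only the spread between these libraries.

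In situ Hi-C joins neighbouring DNA ends inside crosslinked nuclei, and each read pair records a contact between positions of the genome. A chromatin loop is a pair of sites, its anchors, that meet more often than their surroundings. Many loops form when the cohesin ring extrudes DNA until it meets the zinc finger protein CTCF at both anchors, and others join promoters to enhancers. Contacts fall steeply with the distance between sites, so a loop can only be called strong or weak for its length. Contacts also scale with the number of DNA copies, which in K562 varies along the genome: amplification of segments of chromosomes 22, 9 and 13 around the fusion gene and loss of the CDKN2A tumour suppressor region on chromosome 9 are known features of the line. The counts carry no correction for copy number, so contacts per copy and the number of copies cannot be told apart. They also hold no expression, so the labelled cell type could not be checked against marker levels.

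The sequences just before the start sites of 4 genes are shown because these promoters lie in anchors of loops described here. They are picked examples and do not stand for whole anchors of 10 kb, whose sequence was not read. They are 250 bases each, from RefSeq on GRCh38.p14, with matches to part of the CTCF core motif (AGGGGGC or AGGTGGC, searched on both strands) in capitals. BCR, a kinase and GTPase regulator that gives the start of the fusion protein, starts in the anchor of the loop with the highest count (chr22:23180259-23180508, + strand). UROD is an enzyme of haem synthesis (chr1:45012004-45012253, + strand). EPB41 encodes protein 4.1 of the red cell membrane skeleton (chr1:28886850-28887099, + strand). HOXD8 is a patterning transcription factor (chr2:176129455-176129704, + strand).
BCR: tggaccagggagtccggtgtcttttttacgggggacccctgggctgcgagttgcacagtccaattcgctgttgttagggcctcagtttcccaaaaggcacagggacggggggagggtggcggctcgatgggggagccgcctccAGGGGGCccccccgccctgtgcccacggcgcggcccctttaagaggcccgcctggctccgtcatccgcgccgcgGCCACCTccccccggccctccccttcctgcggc
UROD: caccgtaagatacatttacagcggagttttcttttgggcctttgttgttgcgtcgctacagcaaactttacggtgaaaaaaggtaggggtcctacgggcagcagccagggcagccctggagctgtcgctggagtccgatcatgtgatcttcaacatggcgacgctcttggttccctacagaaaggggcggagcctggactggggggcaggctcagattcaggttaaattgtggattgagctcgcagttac
EPB41: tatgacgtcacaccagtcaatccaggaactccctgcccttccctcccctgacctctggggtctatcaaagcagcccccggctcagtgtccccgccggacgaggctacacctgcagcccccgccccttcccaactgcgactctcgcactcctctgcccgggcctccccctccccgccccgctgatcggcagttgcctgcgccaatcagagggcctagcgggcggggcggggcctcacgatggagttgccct
HOXD8: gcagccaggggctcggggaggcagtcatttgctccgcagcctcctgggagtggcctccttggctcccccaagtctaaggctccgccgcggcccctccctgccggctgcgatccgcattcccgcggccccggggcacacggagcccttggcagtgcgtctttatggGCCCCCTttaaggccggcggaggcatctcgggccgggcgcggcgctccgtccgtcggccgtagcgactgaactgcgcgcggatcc
The BCR promoter held 2 matches to the CTCF core part and the HOXD8 promoter held 1, while UROD and EPB41 held none. Their GC contents were 70.8% at BCR, 53.6% at UROD, 68.4% at EPB41 and 72.4% at HOXD8. EPB41 also held 4 GC boxes (GGGCGG, either strand). Among 22132 promoters of protein-coding genes, 21.3% held the CTCF core part, and among the 5376 whose start site lay in an anchor, 23.2% did. The GC box was found in 53.7% of all promoters and in 58.4% of those at anchors, the CCAAT box in 32.7% and 31.5%, and the GATA word AGATAA in 7.08% and 6.55%. Median GC content was 62.0% over all promoters and 63.6% at anchors. The shares at anchors thus lay close to those of all promoters, and a match is only a string of letters, not a bound site.

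The libraries held 1472197, 1102213, 849895 and 929445 contacts in loops for replicates 1 to 4. Values are given as contacts per 1000000 loop contacts after scaling, called normalized counts. Replicates 3 and 4 did not differ beyond sampling noise in a chi-square test of their loop counts, which gave a ratio of 1.01 to its degrees of freedom (p = 0.0985). The other 5 pairs gave ratios of 1.061 to 1.149. Replicates 3 and 4 were therefore counted as 1 sample in means, and each mean ± SD is over n = 3. The edgeR tests below, with their SE and adjusted p, kept replicates 3 and 4 as separate libraries. Technical replicate 2 of replicate 1 stood apart from its partners: it gave 1.111 and 1.083 against technical replicates 1 and 3 of replicate 1, which gave 1.003 between themselves, and 1.003 to 1.012 against the technical replicates of replicate 2. The share of its contacts in loops of 200 kb or less was 56.5%, against 58.5% and 58.7% in its partners and 55.6% to 56.7% in replicate 2. Results that could rest on this library are given with and without it.

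Loop strength followed length closely. Loops spanned 30 to 8910 kb with a median of 440 kb, on 23 chromosomes. The median normalized count was 103 ± 4.44 for loops of 30 to 50 kb, with 106, 97.7, 105 and 103 in replicates 1 to 4. It was 46.1 ± 0.699 at 110 to 200 kb, 11.99 ± 0.403 at 410 to 800 kb and 1.83 ± 0.200 above 1600 kb. Every step to a longer class lowered the median in all 4 replicates. Per 10-fold length the log2 count fell by 3.44 ± 0.10, which is 10.9-fold, and by 3.49 without technical replicate 2 of replicate 1. The slope was not uniform: it was -2.21 ± 0.09 up to 200 kb, -3.96 ± 0.13 from 210 to 1000 kb and -3.02 ± 0.06 above 1000 kb. Replicate 2 had the shallowest slope up to 1000 kb in both ranges, at -2.10 and -3.81. The slope above 1000 kb rests on few contacts, and the overall slope was -1.89 among loops with enough counts to be tested and -2.93 with a pseudocount of 2 in place of 0.5.

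**Figure D1:**
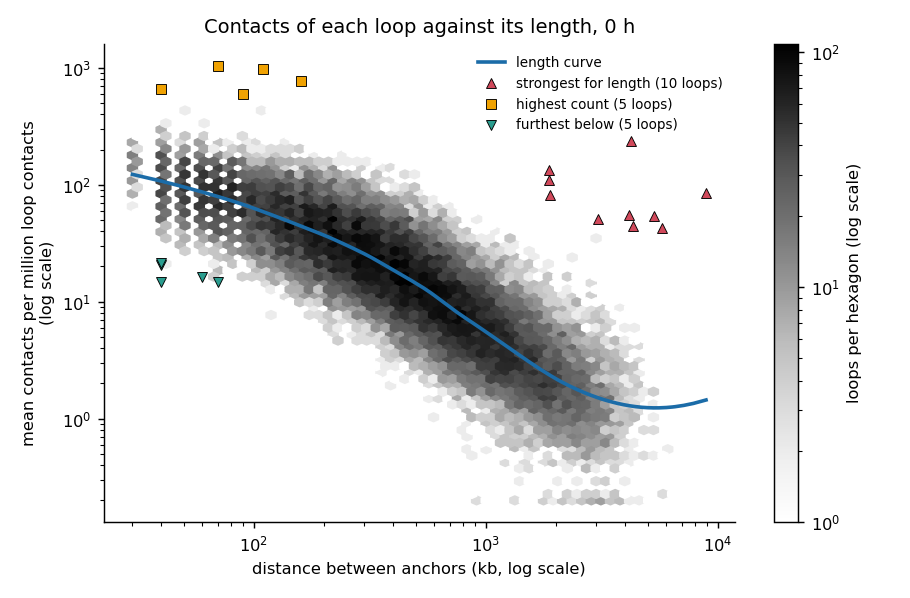
Mean normalized count of every loop (y axis, contacts per 1000000 loop contacts, log scale, values under 0.2 drawn at 0.2) against the distance between its anchors (x axis, kb, log scale); shading counts loops per hexagon. The blue line is the fitted length curve, triangles mark the 10 loops strongest for their length, all of 1870 kb or more, squares the 5 highest counts and inverted triangles the 5 loops furthest below the curve.

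Contacts were spread unevenly over loops. The 339 loops with the highest counts, 1% of the set, held 7.54% ± 0.351 of all loop contacts, and the top 10% held 39.1% ± 1.21. Their median lengths were 60 and 100 kb. Within a length class the spread grew with length: the 90th percentile of the normalized count was 3.58 times the 10th at 30 to 50 kb, 5.35 times at 210 to 400 kb and 8.25 times above 1600 kb, where counting noise is largest. Loops of 200 kb or less were 8211 in number, and those above 1000 kb were 7599.

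Each loop was set against a smooth curve of count on length, and the log2 ratio to that curve is the measure of strength used from here on. A ratio of 0 is the level of a typical loop of that length. The curve rests on few loops at its far end, where only 52 exceed 5000 kb. The counts of 18534 loops were high enough to test, and 15380 were not tested. At an adjusted p under 0.05 (edgeR's quasi-likelihood test against the curve, Benjamini-Hochberg over 18534 loops) and at least 2-fold, 3564 loops, 19.2% of those tested, lay above the curve and 983, 5.3%, below it. Their median log2 ratios were 1.40 and -1.22. Of these, 2485 loops were at least 2-fold above the curve in every one of the 4 replicates, and 435 were at most 0.5 of it in every one. Without technical replicate 2 of replicate 1 the calls were 3569 and 933. The share called depends on length through the count filter, since a long loop passes it only when strong: all 66 tested loops above 1600 kb were above the curve, and no called loop below it was longer than 330 kb. Loops just inside and just outside the 2-fold limit both had a log2 ratio of 1.00.

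Most strong loops were strong again in libraries that did not choose them. Loops were chosen with a count of at least 10 and at least 2-fold above the curve in both of 1 pair of replicates, with nothing asked of the other pair. Of 3320 loops chosen in replicates 1 and 2, 79.5% were at least 2-fold above the curve in both 3 and 4, with a median log2 ratio of 1.51 where chosen and 1.51 where measured. In the other direction 78.5% of 3192 loops held, with 1.53 and 1.45. The 100 strongest of each choice all held, at medians of 3.16 and 3.26 one way and 3.34 and 3.12 the other. Among tested loops the shares were 84.1% of 2956 and 80.1% of 3103, but a tested loop had to pass the count filter in every library, which for long loops lies above 2-fold. Loops that parted the replicates were few: among 18534 tested loops, both of replicates 1 and 2 exceeded both of 3 and 4 by at least 1.5-fold at 49, and the reverse was seen at 41. The widest of these was loop16210 (chr7:67150001-72670000, 5510 kb), with normalized counts of 19.2 and 21.3 in replicates 1 and 2 and 51.4 and 52.5 in 3 and 4. That loop is named after its values were seen. In the labels this split is also one of 3 against 2 technical replicates and of 1 against 2 sequencing runs.

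The loops strongest for their length were all long, and they lay in a few places. Loop28928 on chromosome 16 (anchors chr16:70120001-70130000 and chr16:74360001-74370000, 4240 kb apart) had normalized counts of 232, 224, 267 and 237 in replicates 1 to 4, against 1.28 on the curve. That is a log2 ratio of 7.30 ± 0.09 (SE, adjusted p = 5.7e-188, edgeR). One anchor lies over PDPR, a regulatory subunit of pyruvate dehydrogenase phosphatase, and the other over PDPR2P, a pseudogene copy of it. Beside it, loop28932 (70150001 to 74310000) reached from PDPR to PSMD7, a proteasome lid subunit, with 59.0, 41.8, 59.8 and 69.6. Loop28929 (70130001 to 74450000) reached GLG1, a Golgi glycoprotein, with 50.7, 40.9, 43.0 and 39.6. All 4 replicates were more than 30 times the curve at these 3 loops.

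Chromosomes 15 and 7 held the next groups. Loop27508 (anchors at 20410001 and 22290001 of chromosome 15, 1880 kb) had 144, 129, 121 and 129 against 2.37 on the curve. Its neighbours loop27497 (1870 kb) and loop27502 (1900 kb) had means of 111 ± 3.47 and 81.7 ± 9.23. An anchor of loop27508 lies over HERC2P3 and one of loop27502 over REREP3, both pseudogenes. On chromosome 7, loop16209 (5780 kb) joined TYW1, an enzyme of transfer RNA modification, to its near copy TYW1B, with 38.4, 47.1, 43.0 and 43.9. Loop16211 (5290 kb), whose second anchor is 14 kb from TYW1B, had 45.2, 39.1, 67.0 and 85.7, so its replicates parted as those of loop16210 did. The anchors of these loops on chromosomes 16, 15 and 7 lie at or near gene copies of high similarity. Read pairs between true anchors and pairs placed at the wrong copy cannot be told apart in the counts, so these values are uncertain.

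Loop25761 on chromosome 13 was the longest loop of the table at 8910 kb (anchors chr13:80880001-80890000 and chr13:89790001-89800000). It had 83.7, 92.4, 75.3 and 81.4, against 1.44 on the curve (log2 ratio 5.65 ± 0.12, adjusted p = 1.3e-130, edgeR). Neither anchor holds a protein-coding gene; the nearest are SPRY2, an inhibitor of growth factor signalling, at 538 kb and GPC5, a cell surface proteoglycan, at 1598 kb. Close to its second anchor begin loop26056 (89810001) and loop26058 (89850001), with log2 ratios of 3.83 and 3.10. Loop30118 on chromosome 18 (3050 kb) joined CLUL1, a clusterin-like gene, to DLGAP1, a scaffold of the postsynaptic density, with 53.5, 43.5, 63.4 and 48.2 against 1.51. All lengths are distances on the reference genome. Distances on the K562 chromosomes were not measured, so the curve value that applies to such loops is uncertain. Among all tested loops 67 reached at least 8-fold above the curve, on 19 chromosomes. Of these, 49 were 1000 kb or longer, out of 317 tested loops of that length and 7696 in all. A long loop passes the count filter only when strong, so nothing is read from the share among tested long loops. Another 8 of the 67 lay in the stretch from 6 Mb before the start of BCR to 0.1 Mb past it.

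The loops at least 8-fold above the curve outside the named places were scattered, and those given here were chosen after their values were seen. Chromosome 22 held 8 of the 67, all of 70 to 440 kb, and chromosome 16 held 7, of 1110 to 4500 kb. Chromosomes 15 and 7 held 6 each, and chromosomes 3, 6, 9 and 13 held 4 each. On chromosome 16, loop28567 (1110 kb) had 126, 102, 135 and 132 against 4.797 on the curve, a log2 ratio of 4.62 ± 0.10. On chromosome 4, loop10276 (3130 kb) had 36.3, 43.5, 31.1 and 22.5 against 1.48, within a chromosome whose median was below the curve. On chromosome 3, loop7990 was short for this group at 110 kb, with 440, 357, 587 and 540 against 58.8. Replicates 3 and 4 lay above 1 and 2 at loop7990 and loop28567 and below them at loop10276, and every replicate of these loops was far above the curve. On chromosome 20, loop31789 (620 kb) had 103, 120, 147 and 111 against 10.8.

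**Figure D2:**
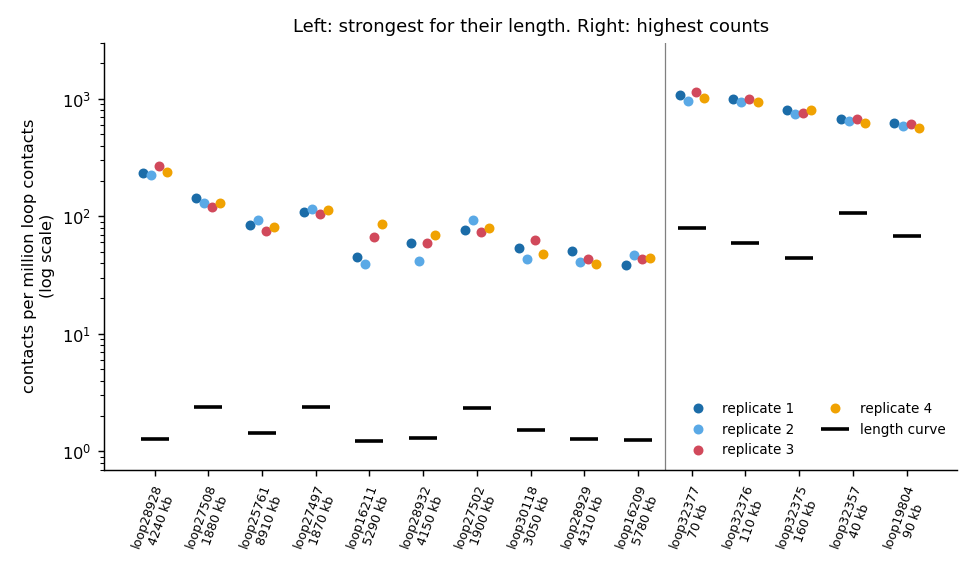
Normalized counts (contacts per 1000000 loop contacts, log scale) of the 10 loops strongest for their length, left of the line, and of the 5 with the highest counts, right of it, with 1 point per replicate and the length curve as a black bar. All replicates lie far above the bar, closely together at most loops but not at loop16211, which has 39.1 to 85.7: loop28928 has 224 to 267 against 1.28, and loop32377 has 964 to 1139 against 79.3.

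The 5 highest counts of the table lay in or before BCR on chromosome 22 and in ABL1 on chromosome 9. Loop32377 (anchors chr22:23180001-23190000 and chr22:23250001-23260000, 70 kb) runs from the starts of BCR and RSPH14, a gene of cilia and sperm tails, into BCR. It had 1082, 964, 1139 and 1023, a mean of 1042 ± 68.1 against 79.3 on the curve (log2 ratio 3.72 ± 0.07, adjusted p = 6.7e-140, edgeR). Loop32376 (110 kb), which spans the same start, had 1004, 943, 992 and 937. Loop32375 (160 kb), with the end of GNAZ in its second anchor, had 804, 744, 762 and 804; GNAZ encodes a G protein alpha subunit. Loop32357 (40 kb, between ZNF74 and KLHL22) had 677, 648, 678 and 617 against 107, and its log2 ratio of 2.61 ± 0.07 fell to 0.63 with the median of its 5 Mb window added to the curve. On chromosome 9, loop19804 (90 kb), with both anchors within ABL1, the tyrosine kinase of the fusion, had 626, 588, 613 and 564 against 67.8. Its neighbour loop19805 (80 kb), from ABL1 to FIBCD1, a receptor that binds chitin, had 505 to 572 over the 4 replicates, against 73.2.

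The level along chromosome 22 changed at BCR. In the 6 Mb before the start of BCR, and 0.1 Mb past it, the 47 loops had a median log2 ratio of 2.28, 2.14, 2.27 and 2.22 in replicates 1 to 4, a mean of 2.22 ± 0.07 or 4.67-fold. Of 46 tested loops 43 were called above the curve and none below, beside 19.2% and 5.3% of all tested loops. These are 0.139% of all loops and held 1.23% ± 0.00791 of the contacts. From 0.1 to 6.2 Mb past the start the 67 loops had a median of -0.20 ± 0.05, with 7 of 55 tested loops above and 6 below. In the last Mb before the start of BCR the median was 2.79 ± 0.08 over 10 loops, and in the first Mb past it -0.41 ± 0.01 over 11. No replicate median of one side overlapped the other. Those 11 loops include loop32377 and loop32376, which also belong to the 47 loops above. Their midpoints lie 0.039 and 0.049 Mb past the start, and their log2 ratios were 3.72 and 4.03. The next midpoint is that of loop32378 at 0.174 Mb, with -0.98. On the far side, between 7 and 6 Mb before BCR, 17 loops were at 0.07 ± 0.20. These intervals were drawn after the values were seen, and the region is described with no test of its own.

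By its median the ABL1 side was raised less than the BCR side, and not at the gene alone. From 0.5 Mb before the lower-coordinate end of ABL1 to 0.3 Mb past it, 10 loops had a median log2 ratio of 1.17 ± 0.07. Of 10 tested, 5 were above the curve, beside 19.2% of all tested loops. That interval mixed levels. With midpoints past the end, loop19803, loop19804, loop19805 and loop19806 had log2 ratios of 2.77 to 3.27. Its loops with midpoints before the end had -0.29 to 1.57. The 29 loops from 3 to 0.5 Mb before that end were at 0.63 ± 0.06 and the 28 loops from 0.3 to 3 Mb past it at 0.34 ± 0.11. Further away, 11 loops between 9 and 8 Mb before it were at 1.24 ± 0.12 and 6 loops between 4 and 3 Mb before it at 1.07 ± 0.13. The median of the interval at the gene was thus also seen in stretches away from it, but not the level of loop19803 to loop19806. Single loops reached far higher than these medians: loop19803, from ABL1 to LAMC3, a laminin chain, had a log2 ratio of 2.77 ± 0.08. Loop19772, whose midpoint lies before the gene in the second of these intervals, was higher still at 3.99 ± 0.13. On chromosome 13, within a stretch of low values, 3 loops with midpoints in the last Mb before GPC5 had 2.66 ± 0.63. The 9 loops with midpoints in the first Mb past its lower-coordinate end had 2.08 ± 0.23. High loops among them included long ones, such as loop26056 (2860 kb) and loop26058 (3380 kb), so a midpoint near GPC5 does not place their anchors there. The 44 loops between 3 and 2 Mb before GPC5 were at -1.08 ± 0.27, and the 33 loops between 1 and 2 Mb past that end at -0.92 ± 0.29. Over the whole 0 to 2 Mb past it, 42 loops had a median of -0.78 ± 0.26. Loop26059 (3260 kb) reached from 1438 kb before GPC5 to GPC6, another glypican, with 21.9, 24.9, 10.8 and 15 against 1.445 on the curve.

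Around CDKN2A, which encodes the cell cycle inhibitors p16 and p14ARF, the table lists no loop with its midpoint within 1 Mb. The 28 loops between 5 and 1 Mb before it had a median of -0.95 ± 0.02, the 4 loops between 1 and 5 Mb after it -1.29 ± 0.31, and the 32 loops between 5 and 10 Mb after it -1.56 ± 0.14. Only 6 of those 32 could be tested, and 4 of them were below the curve, beside 5.3% of all tested loops. A table of called loops cannot tell a lost region from a region without loops.

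**Figure D3:**
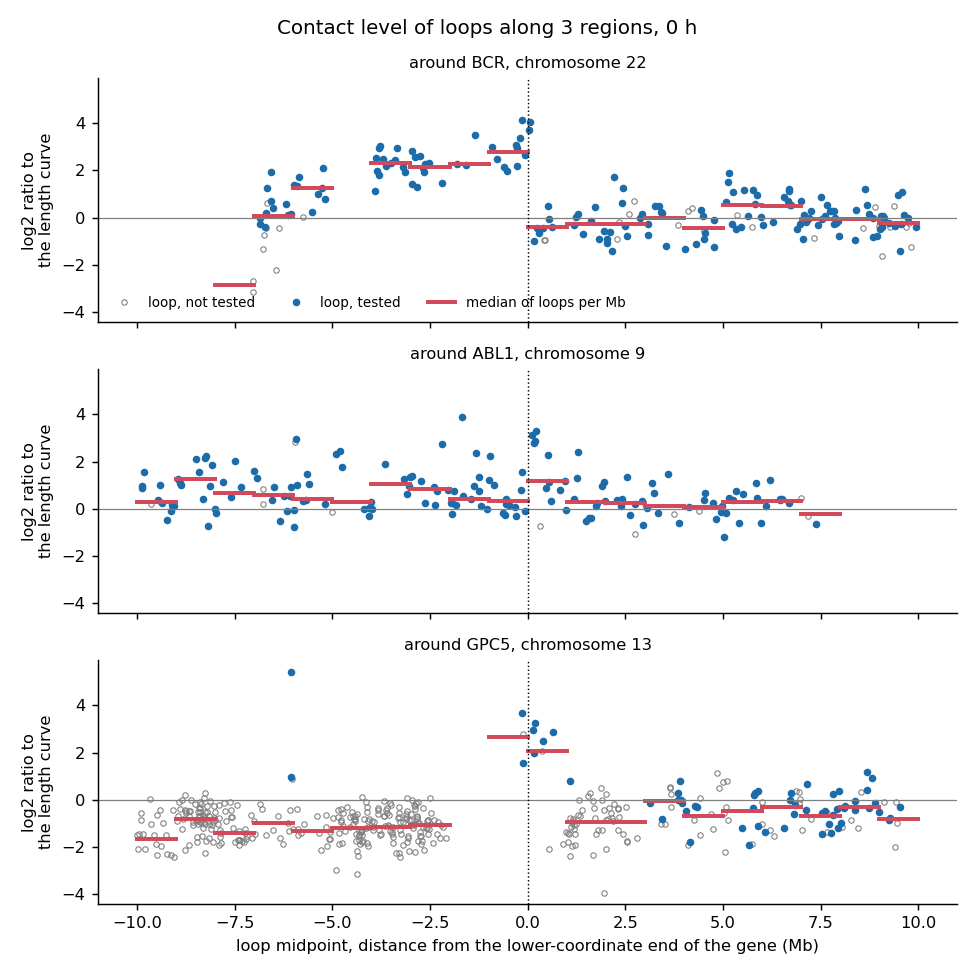
Log2 ratio to the length curve (y axis, from the mean of 4 libraries) of each loop within 10 Mb of BCR, ABL1 and GPC5, by the distance of its midpoint from the lower-coordinate end of the gene (x axis, Mb); filled points were tested, open points were not, and red bars are the median per Mb. Around BCR the bars lie at 2.17 to 2.79 from 4 Mb before the gene up to it and at -0.41 in the next Mb; around ABL1 high points lie both at the gene and before it; around GPC5 a few points lie far above an otherwise low stretch.

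Across whole chromosomes the levels differed less than in these regions. Chromosome 19 had the highest mean, with a median log2 ratio of 0.47, 0.36, 0.51 and 0.47 over its 656 loops (0.44 ± 0.07). Chromosome 7 followed at 0.37 ± 0.02, its replicate range overlapping that of chromosome 19, and chromosome 21 at 0.30 ± 0.04. Chromosome 13 was lowest, with -0.87, -0.76, -0.96 and -0.90 over 1638 loops (-0.85 ± 0.08, which is 0.553 of the curve). Chromosome X was at -0.46 ± 0.02 and chromosome 14 at -0.45 ± 0.01. Between neighbours in the order of 23 chromosomes the replicate ranges overlapped in 15 of 22 pairs, among them 19 and 7, 21 and 6, and 14 and X, so much of the order is not resolved. Chromosome 13 lay below every other chromosome in all 4 replicates. The gap between chromosomes 19 and 13 was 1.29, and 1.31 without technical replicate 2 of replicate 1; among tested loops alone it was 0.89. Of tested loops, 24.8% of chromosome 13, 16.2% of X and 16% of 14 lay below the curve, beside 5.3% of all. Chromosome 1 had the largest share above, 31.5%, followed by chromosome 6 with 29.9% and chromosome 7 with 29.6%, beside 19.2% of all.

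**Figure D4:**
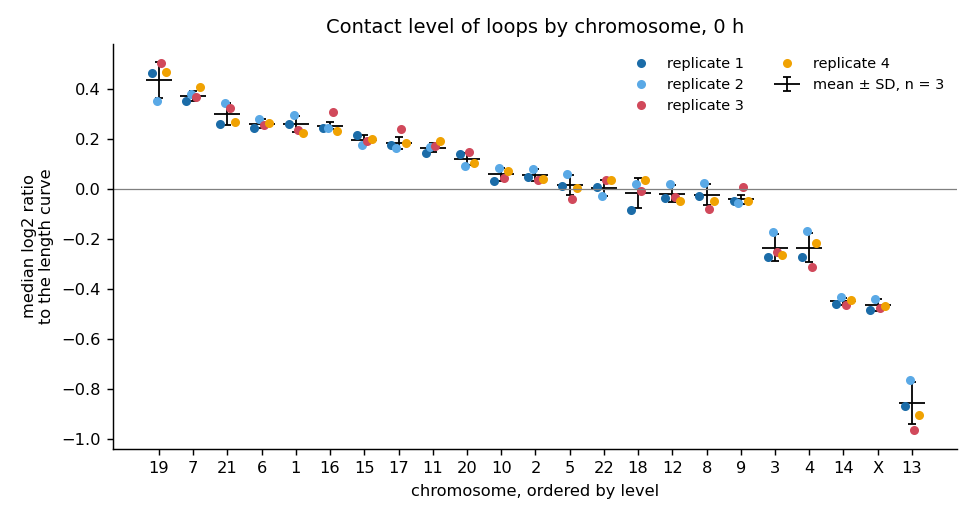
Median log2 ratio to the length curve (y axis) for the loops of each chromosome (x axis, ordered by level), with 1 point per replicate and a black bar for the mean ± SD with n = 3. Chromosomes 19 and 7 stand at the top at 0.44 and 0.37, chromosomes 14 and X lie together near -0.45, and chromosome 13 is lowest at -0.85.

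In windows of 5 Mb the same unevenness was seen at finer scale. Of 572 windows with at least 10 loops, 43 were at least 1.5-fold above the curve in all 4 replicates and 37 at least 1.5-fold below it. Without technical replicate 2 of replicate 1 these were 44 and 39, but over tested loops alone only 7 windows were below. The highest was chr22:20000001-25000000 at 2.01 ± 0.09 over 42 loops. Next came the first 5 Mb of chromosome 18 at 1.37 ± 0.01 (32 loops), where the level was highest between 1 and 2 Mb past TYMS, the thymidylate synthase gene, at 2.04 ± 0.17. The window chr6:30000001-35000000, which holds much of the major histocompatibility complex, was at 1.09 ± 0.05 over 75 loops. Chr16:80000001-85000000 was at 1.05 ± 0.03 and chr7:125000001-130000000 at 0.98 ± 0.05.

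The lowest windows were chr9:25000001-30000000 at -1.52 ± 0.13 over 31 loops and chr4:160000001-165000000 at -1.47 ± 0.22 over 181 loops. They were followed by chr16:35000001-40000000 (-1.43 ± 0.16), chrX:60000001-65000000 (-1.26 ± 0.04) and chr13:80000001-85000000 (-1.23 ± 0.18). High windows lay most often on chromosome 1, with 17, and low windows on chromosome 13, with 14. The median number of protein-coding genes was 48 in high windows, 12 in low windows and 25 in the others. High windows held 2090 of the tested loops, of which 892 (42.7%, beside 19.2% of all) were above the curve, and low windows held 443, of which 132 (29.8%, beside 5.3% of all) were below. These windows were chosen by the same ratios, so nothing is read from the shares. When each window's own median was added to the curve, 2280 loops were called above, of which 1914 were among the first 3564, and 1000 below, of which 485 were among the first 983.

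The loops furthest below the curve were short. Loop17459 on chromosome 8 (39480001 to 39530000, 40 kb), with both anchors over ADAM3A, a pseudogene of a sperm surface protease, had 13.7, 13.3, 14.35 and 19.3 against 107 on the curve. Its log2 ratio was -2.84 ± 0.10 (SE, adjusted p = 5.4e-81, edgeR). Loop30994 on chromosome 19 (60 kb) ends at PSG1, one of a family of placental glycoprotein genes with near-identical copies, and had 17.1, 19.5, 11.96 and 11.8 against 86.7. Loop26541 on chromosome 14 (40 kb) begins at GZMB, the granzyme B gene of cytotoxic lymphocytes, with 25.4, 21.3, 15.5 and 15 against 107. Loop32615 on chromosome 22 (70 kb), between PNPLA5 and SAMM50, had 16.5, 11.55, 11.96 and 20.4 against 79.3. Loop19217 on chromosome 9 (40 kb) had 21.9, 21.3, 23.9 and 19.3 against 107. No replicate of these 5 loops came near the curve. Reads of near-identical PSG copies cannot be told apart in the counts, so the value at PSG1 is uncertain.

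Loops that shared anchors were somewhat stronger for their length. The table has 43806 anchors of 10 kb, of which 29118 serve 1 loop and the busiest serves 14. Where both anchors served 1 loop only, the median log2 ratio was -0.23 ± 0.04 over 6434 loops. It was -0.04 ± 0.02 where the busier anchor served 2 loops, 0.10 ± 0.02 for 3 and 0.11 ± 0.03 for 4 or more. Replicate values of the first 3 classes did not overlap. Loops with a promoter in an anchor were shorter: the median length was 490 kb with none, 270 kb with a promoter in 1 anchor and 200 kb with promoters in both. Their median log2 ratios were -0.05 ± 0.04, 0.19 ± 0.02 and 0.28 ± 0.08, and the replicate ranges of the last pair of classes overlapped. The share called above the curve ran the other way, at 19.6%, 18.5% and 14.2% of tested loops, beside 19.2% of all, and the share below was 5.64%, 4.44% and 1.77%. The share above also rises with length through the count filter. It was 11.2% of all tested loops at 110 to 200 kb, 15.5% at 210 to 400 kb and 34.9% at 410 to 800 kb. The classes were not compared at equal length, so nothing is read from the order of these shares.

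Loops at listed genes were taken where an end of the gene lay in an anchor. Over all lists the median is read beside -0.002 for all loops and 0.28 for those tested. Of the erythroid list, 17 of 33 genes had 30 loops; 5 of 20 tested loops (25.0%, beside 19.2% of all) were above the curve and none below, with a median of 0.40 ± 0.08. UROD gave the strongest, loop531 (280 kb), whose anchor also holds an end of HECTD3 and of ZSWIM5, with 160, 153, 165 and 157.5 against 27.5 (log2 ratio 2.52 ± 0.08, adjusted p = 8.3e-90, edgeR). EPB41 gave loop359 (320 kb) with 108, 66.6, 120 and 82.5 against 24.0, and loop358 (150 kb) with 142, 109, 130 and 135 against 46.6. Both fell under 2-fold when the median of their 5 Mb window was added to the curve. The alpha-globin genes HBA1 and HBA2 share loop28358 (70 kb), at 0.71 ± 0.08, and HBG2, a fetal globin gene, had loop21321 (30 kb) at 0.11 ± 0.07; neither was called. Globin genes of a pair are near-identical copies, so these 2 values are uncertain.

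The megakaryocyte list, genes of the fate that PMA induces, had 5 loops at 4 of 17 genes. ITGB3, the platelet integrin beta 3 chain, had loop29727 (80 kb) with 178, 147, 149 and 165 against 73.2 (log2 ratio 1.13 ± 0.08, adjusted p = 2.4e-36, edgeR). It is the 1 of 4 tested that was above the curve (25%, beside 19.2% of all). This loop lost its call in 4 of the alternatives. Its log2 ratio was 0.56 with the window median added to the curve, 0.93 against a straight line on length and 0.95 with the chromosome median. Tested against a fold of 2, its adjusted p was 0.24 (edgeR). ITGA2, a collagen receptor chain, had loop11295 at -0.48 ± 0.12, and CD9, a tetraspanin, had loop22960 at 0.18 ± 0.10.

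Among haematopoietic transcription factors, 9 of 40 tested loops were above the curve and none below, a share of 22.5%, near the 19.2% of all tested loops. MYC, the growth regulator, had 12 loops of 50 to 1950 kb, of which 6 of 11 tested were above, beside 19.2% of all. The strongest, loop18715, reached CCDC26 at 1950 kb with 37.7, 30.2, 33.5 and 33.2 against 2.27 (log2 ratio 3.77 ± 0.17, adjusted p = 7.2e-60, edgeR), and loop18714, to the same gene at 1830 kb, was at 2.96 ± 0.19. All 66 tested loops above 1600 kb were above the curve, so nothing is read from the calls of loop18715 and loop18714. LYL1 had loop30701 (120 kb) at 1.71 ± 0.08, shared with the NFIX end. LMO2, a partner of these factors in blood progenitors, had loop21673 (110 kb) with 186.5, 175, 179 and 157.5 against 58.8. ETV6 had a loop with a log2 ratio of -0.90 and GATA2, a progenitor factor, a loop with -0.24, and neither was called.

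Among the lists not drawn for a rearranged region the HOX list had the largest share above the curve. It was 16 of 25 tested loops (64.0%, beside 19.2% of all), with none below. The median was 1.09 ± 0.03 over all 30 loops, tested or not. Many were long, with 280 to 1260 kb at HOXA and 390 to 1340 kb at HOXD. Of all tested loops 34.9% were above at 410 to 800 kb and 91.8% at 810 to 1600 kb. The called share of the HOX loops thus cannot be told apart from their length and the count filter. These loops share anchors and are not independent. By cluster the counts above were 8 of 10 tested at HOXA, 1 of 6 at HOXB, 3 of 4 at HOXC and 4 of 5 at HOXD. HOXA13 gave loop15836 (730 kb, to JAZF1) with 43.2, 52.4, 46.6 and 56.8 against 8.48, and loop15837 (820 kb) with 28.1, 33.8, 44.2 and 39.6 against 7.23. HOXD8 and HOXD9 share loop4393 (1020 kb) with 30.2, 24.9, 31.1 and 23.6 against 5.40. In all 4 replicates these 3 loops exceeded the curve by more than 3-fold.

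The remaining lists lay nearer to all loops. Housekeeping genes had 3 of 16 tested loops above (18.8%, beside 19.2% of all), with HSP90AB1, a heat shock chaperone, at 1.32 ± 0.07 in loop13740, NPM1, nucleophosmin, at 1.23 ± 0.14 in loop13020 and YWHAZ at 1.06 ± 0.09 in loop18248. All 3 fell under 2-fold with the window median added to the curve. Genes of other lineages, which K562 cells should not use, had 2 of 15 above (13.3%, beside 19.2% of all): loop7830 at SOX2, a stem cell factor, at 1.35 ± 0.17 and loop3590 at EPCAM, an epithelial adhesion protein, at 1.02 ± 0.07, with GFAP of astrocytes at 0.86 ± 0.08 in loop29699. Loop3590 lost its call in 7 of the alternatives. Genes of the loop machinery had 1 of 10 above (10.0%, beside 19.2% of all), loop8526 at the cohesin regulator PDS5A at 1.46 ± 0.14. Another PDS5A loop, loop8531, was at 0.90 ± 0.11, and loop7149 at the cohesin subunit gene STAG1 was at 0.70 ± 0.14; neither was called. No loop of any of these lists was called below.

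Lists drawn for the rearranged regions carry what the region shows and are no separate evidence. Their shares are read beside 19.2% of all tested loops above the curve and 5.3% below. Of the 22q11 list 8 of 10 tested loops were above the curve and none below, from 11 loops at 9 of 23 genes, at a median of 2.09 ± 0.09. Loop32372 at GNAZ (280 kb) had 288, 290.5, 308.5 and 284 against 27.5. Of the 9q34 list 6 of 11 were above, at 1.08 ± 0.05, with PRDM12 at 1.58 ± 0.09 in loop19799. The 13q31 list had 2 of 5 tested loops above and 1 below, at -0.72 ± 0.11 over 12 loops. Those above were loop26059 and loop26061 (2350 kb, 2.99 ± 0.19) at GPC6. All 66 tested loops above 1600 kb were above the curve, so nothing is read from these calls. Loop25758 at SPRY2 (110 kb) was below with 10.3, 19.5, 20.3 and 15 against 58.8. It lost its call at -0.97 with the window median added to the curve. The 9p21 list had 2 loops, both at MLLT3, at -2.05 ± 0.21, and neither could be tested. Of the 4 fusion genes listed, BCR alone had an end in an anchor, that of loop32377.

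**Figure D5:**
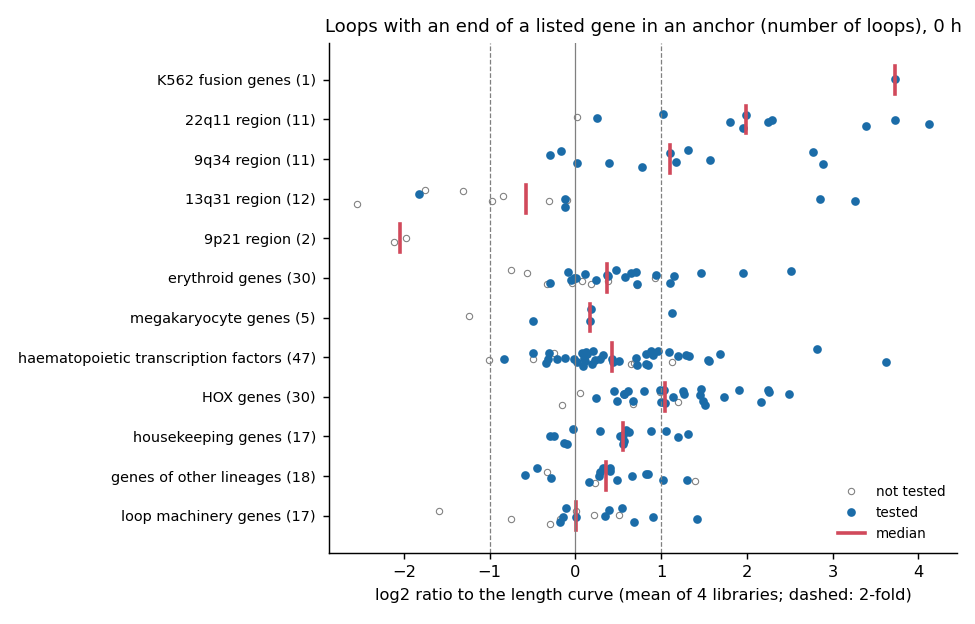
Log2 ratio to the length curve (x axis, from the mean of 4 libraries) of each loop with an end of a listed gene in an anchor, by list (rows, with the number of loops); filled points were tested, open points were not, red bars are medians and dashed lines mark 2-fold. Apart from the single BCR loop, the 22q11 list lies furthest right, and the 13q31 and 9p21 lists lie lowest. The HOX and 9q34 lists follow the 22q11 list, close together. Medians taken in each replicate and then averaged, as in the text, are 2.09 for 22q11, 1.09 for HOX and 1.08 for 9q34. They are -0.72 for 13q31, -2.05 for 9p21 and 0.05 to 0.44 for the 6 remaining gene lists. The red bars are medians of the drawn points and can differ from these averaged values.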

How the data were processed

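In situ Hi-C of K562 cells gave 1 deposited table with 1 row per loop, per the file headers. Its count columns hold the raw number of contacts between both anchors in each technical replicate, as the authors deposited them; the other columns used, anchor positions, were deposited counted from 0 and are given here counted from 1. Juicer 1.5.6, DESeq2 and hg38 are named in the submitters' processing notes, without their roles. How and on which samples loops were called is not given in the sources used here. Of 30 count columns the 20 of treated times were not used. Read pairs were not corrected for copy number or mappability, and 2 anchor pairs are listed under 2 loop names each, none of them called. Loops of the BCR, ABL1, GPC5 and CDKN2A regions, the gene lists and the loops named were chosen with earlier results of these data known.

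Technical replicates were summed and scaled by TMM in edgeR 4.0.16 (R 4.3.3) to contacts per 1000000. The length curve was a robust loess (span 0.3) of log2 mean normalized count plus 0.5 on log10 length over all loops. Loops passing filterByExpr (minimum count 10, minimum total 15) were tested with edgeR's quasi-likelihood F test of the intercept with the curve as offset. Since edgeR's own function takes no design of 1 column, its F was written out and tested on simulated data. Fits kept 4 libraries. The median tested loop had a mean count of 39.25, for which the exact 95% limits of a Poisson count of 39 run from 27.7 to 53.3, covering counting error only. Alternatives were other curves, scalings, filters, thresholds, libraries left out and DESeq2 1.42.0.

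Named loops were the 10 called loops with the largest fold among those at least 2-fold above the curve in all 4 libraries, the 5 such loops of 1 Mb or more, the 5 highest counts, the 5 called loops furthest below, up to 3 tested loops per list furthest from the curve and every loop at BCR and ABL1, besides the 3 highest and 3 lowest chromosomes and the 5 highest and 5 lowest windows. Other loops and genes named were chosen after their values were seen. A gene was placed by either end, from a RefSeq table of GRCh38.p14. Of 12 lists, 1 gene of the 13q31 list was not matched.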

Additional observations from a re-analysis of the deposited data

How the results depend on the processing

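The 48 named loops with a test were recomputed under each alternative, which gave 943 values. No loop called in the main fit changed sign, and sign changes at uncalled loops were not counted. Of the 943 values, 917 kept their call or lack of one, 21 lost it and 5 gained it, at 13 loops. Loops above the length curve numbered 3564 and ranged from 3547 to 3783 when each replicate was left out, and loops below it, 983, from 968 to 1193. Above, the count moved by over 1.5 times to 6595 at a fold of 1.5, 2170 when tested against a fold of 2, 2278 with technical replicates as libraries, where 9136 loops passed the filter, and 2280 with the window median. Below, it moved to 2591, 366 and 92 under the first 3 of these, to 4404 with no filter on low counts, 1557 with replicates 3 and 4 summed and 1481 with replicates 1 and 2 alone. The window median was an alternative chosen after seeing the data, as was leaving out technical replicate 2 of replicate 1. The slope was -3.50 to -3.42 without each replicate, -1.89 over tested loops, which drops weak long loops, and -2.93 with a pseudocount of 2. The gap between chromosomes 19 and 13 was 1.27 to 1.38 without each replicate and 0.89 over tested loops. Windows at least 1.5-fold above were 45 to 50 without each replicate, 109 at 2 Mb and 22 at 10 Mb; those below were 40 to 50, 90 and 17, and 7 over tested loops, which removes loops of low count. Listed genes had 53 loops above, 94 when a gene end within 10 kb of the anchor counted and 83 when any part of the gene did. Among tested loops the choice of strong loops held at 84.1%, at 80.1% with the replicates exchanged, and at 79.5% with the count filter in the choosing replicates alone, an alternative added after seeing the data. Scaling to total count and DESeq2's size factors gave 3568 and 3564 loops above, and DESeq2's Wald test 3629. No paired analysis was possible because untreated cells are compared with a length curve and no second group enters. Depth limits long loops: 15380 of 33914 loops, mostly long, were not tested.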
